A study of Mus musculus with 10 samples.

Results

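The genes described here carry SMAD and TGF-beta signalling: the ligand Tgfb1, the receptors Tgfbr1 and Tgfbr2, the receptor-regulated SMADs Smad1, Smad2, Smad3 and Smad5, the shared partner Smad4 and the inhibitory SMADs Smad6 and Smad7. They were taken by name, through their Ensembl identifiers, from a table of gene levels in mouse bone marrow, and are 10 of its 55359 genes. The study asked what loss of the helicase Dhx9 does to blood-forming cells. RNA was sequenced from Lin- bone marrow cells, which are enriched for progenitors by removing cells that carry the surface markers of mature blood lineages with a depletion kit. There were 5 libraries from Dhx9f/f mice, labelled WT, in which the Dhx9 gene carries sites for Cre recombinase but no Cre transgene is named, and 5 from Dhx9f/f;MX1 mice, labelled cKO, whose genotype field in the labels reads as a knock down of Dhx9. The level is given in FPKM, which scales fragments by gene length and by library depth.

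In the Dhx9f/f;MX1 mice, the Mx1 promoter, which answers to interferon, drives Cre, which is switched on by injecting poly(I:C), a mimic of viral RNA that itself triggers interferon. The Mx1 promoter is not restricted to blood cells. The model was made to study adult blood formation, and by the general schedule of the study its mice were examined a week after their first injection. For some other experiments of the study that statement covers WT mice too, but for the sequenced WT mice the sources used here do not say whether poly(I:C) was given, and they give no exact age, so an effect of poly(I:C) and one of the genotype cannot be told apart. Depth read from the low values was 15045000 to 18715000 fragments in the WT libraries and 13840000 to 17190000 in those labelled cKO.

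TGF-beta family ligands bind a type II receptor, which phosphorylates a type I receptor, which in turn phosphorylates receptor-regulated SMADs. SMAD2 and SMAD3 carry signals of TGF-beta and activin, SMAD1 and SMAD5 those of bone morphogenetic proteins (BMPs), and either kind joins SMAD4 to act in the nucleus, while SMAD6 and SMAD7 are induced by the pathway and block it. In bone marrow, TGF-beta is known as a signal that holds blood stem cells in quiescence, and it is secreted in a latent form by several marrow cell types, megakaryocytes among them.

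Dhx9 (ENSMUSG00000042699) was looked at before the members, to test the labels. Its level was 130.82, 148.8, 131.25, 156.49 and 131.98 FPKM in cKO libraries 1 to 5 and 68.96, 72.42, 72.18, 69.55 and 65.43 FPKM across WT libraries 1 to 5. All 5 libraries labelled cKO thus lay above all 5 labelled WT, the opposite of what a knockout label implies, with a log2 fold change of 1.0 (limma adjusted p = 1.39e-05 with Benjamini-Hochberg adjustment). Which exons were read cannot be seen from 1 FPKM per gene. By qRT-PCR and Western blot, the study reports reduced DHX9 in bone marrow of cKO mice. The study also reports lower Fos by qRT-PCR in their Lin- cells, and Fos FPKM was lower here in the libraries labelled cKO. Why the Dhx9 FPKM ran the other way was not tested. Libraries are therefore called by their labels, and every direction given here rests on those labels. The sexes were also unevenly spread. Ddx3y, a Y-linked gene, was at 27.62 and 25.38 FPKM across WT libraries 1 and 2, at no more than 0.05 in WT libraries 3 to 5, and the libraries labelled cKO had 19.66 to 38.53, and Xist was at 99.19, 121.04 and 127.76 FPKM across WT libraries 3 to 5 and at no more than 0.09 in the other 7 libraries.

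The groups were compared with limma on log2(FPKM + 0.1) over 18742 genes, those averaging 0.1 FPKM or more, a scale on which the change of low genes is understated. A gene was called when its Benjamini-Hochberg adjusted p was below 0.05 and its level differed at least 2-fold. Smad1, Smad4 and Smad6 were lower in the libraries labelled cKO by this rule and no member was higher, so 3 of the 10 members were called lower against 16.8% of all genes tested, 0 higher against 4.60%, and 3 in either direction against 21.4%. Smad1 and Smad6 are also among the genes that the study picked for display from these same libraries, so their direction is not independent evidence. On adjusted p alone, with no limit on fold change, 9 of the 10 members were lower, against 28.3% of all genes tested, and 0 were higher, against 16.7%. The same 9 members, all but Smad7, had every library labelled cKO below every library labelled WT, against 21.6% of all genes, while for 0 members the order was the opposite, against 10.6%. The median log2 fold change of the 10 members was -0.80, beside -0.11 for all genes tested. The members were chosen with earlier results of these data known. The counts and shares therefore describe them and are no test of an excess. All 10 members passed the filter on low values, Smad6 only through its WT level.

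**Figure D1:**
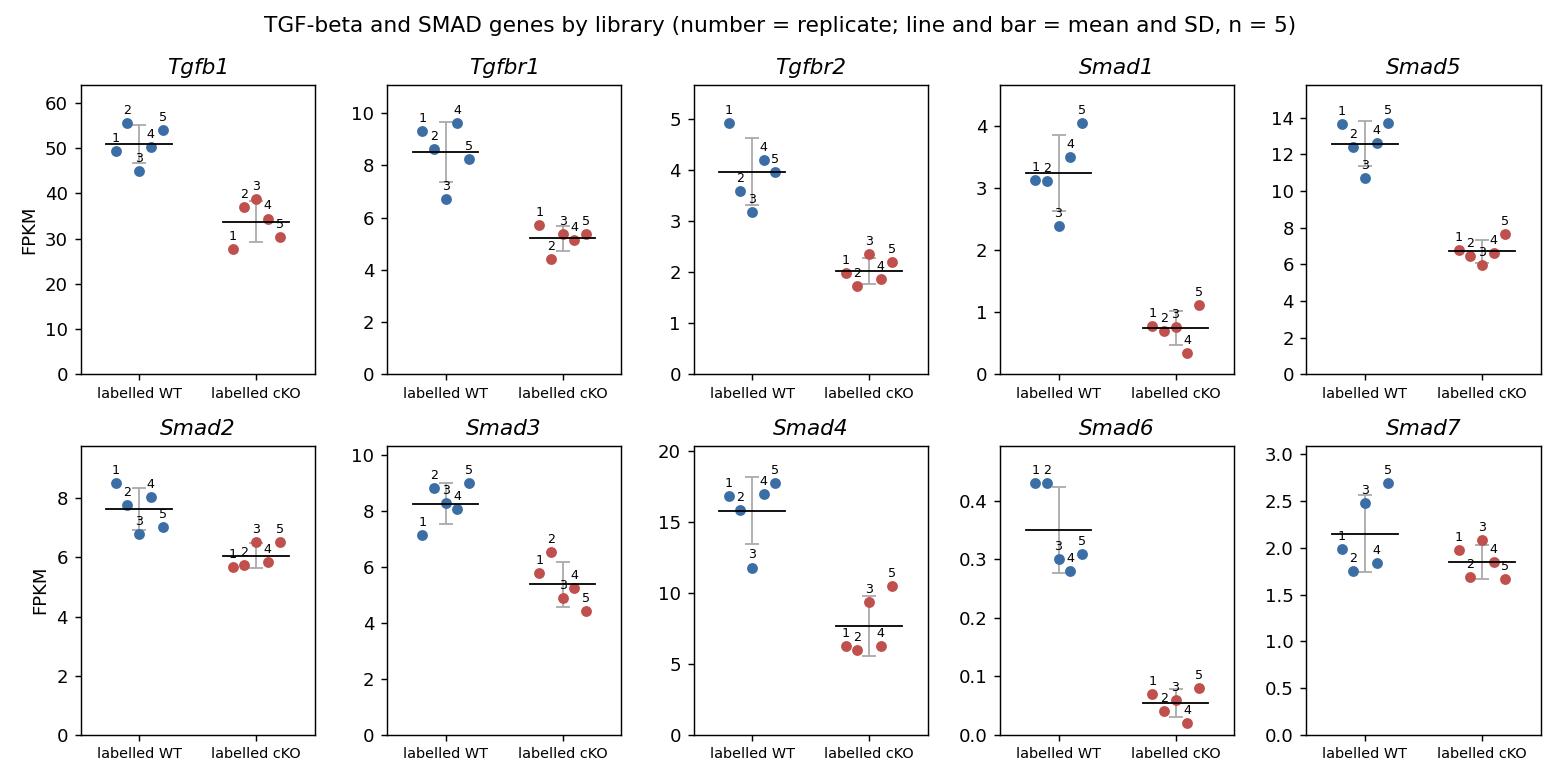
FPKM of each member in the 5 libraries labelled WT (blue) and the 5 labelled cKO (red), numbered by replicate, with the mean as a line and the SD as a bar (n = 5 each); each panel has its own axis from 0. The groups are apart in all panels but that of Smad7.

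To show what lies in front of members of different roles, the 200 bases before the annotated start are printed for Smad1, the receptor-regulated SMAD with the largest fall, for Smad3, its counterpart on the TGF-beta side, and for the ligand Tgfb1. The letters searched were CAGAC, the core of the classical SMAD site, GGCGC and GGCCG, the GC-rich SMAD sites, and TGTGGT, the RUNX core, on both strands, with the GC-rich letters chosen after the windows had been read. Sequences are from GRCm39, 5′ to 3′ on the strand of the gene, and capitals mark every match, which can overlap. The windows are chr8:80126169-80126368, minus strand, for Smad1, chr9:63665477-63665676, minus strand, for Smad3 and chr7:25386190-25386389, plus strand, for Tgfb1, and no annotated exon lies in any of them.
Smad1: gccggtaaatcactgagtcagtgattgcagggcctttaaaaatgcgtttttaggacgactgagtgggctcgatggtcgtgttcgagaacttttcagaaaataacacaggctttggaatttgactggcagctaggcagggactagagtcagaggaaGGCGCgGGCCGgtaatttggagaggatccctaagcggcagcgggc
Smad3: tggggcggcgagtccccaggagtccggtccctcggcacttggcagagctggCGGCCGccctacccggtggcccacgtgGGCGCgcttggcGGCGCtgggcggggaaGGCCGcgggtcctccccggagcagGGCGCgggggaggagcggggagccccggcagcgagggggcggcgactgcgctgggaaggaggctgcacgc
Tgfb1: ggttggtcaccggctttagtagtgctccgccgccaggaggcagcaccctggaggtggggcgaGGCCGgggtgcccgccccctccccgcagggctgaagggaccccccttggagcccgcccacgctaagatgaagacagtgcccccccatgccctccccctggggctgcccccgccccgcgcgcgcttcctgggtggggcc

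The Smad3 window was 79.5% G and C, with 3 matches each to GGCGC and GGCCG, whereas that of Smad1 was 52.0% G and C, with 1 match each, starting 45 and 39 bases before the start. That of Tgfb1 was 75.0% G and C, with 1 match to GGCCG. None of the 3 windows held CAGAC or TGTGGT. Over all 10 members, CAGAC was found in front of 2, GGCGC in front of 7, GGCCG in front of 8 and TGTGGT in front of 0, and among the 18623 tested genes with an annotated start the shares were 34.2%, 35.3%, 32.4% and 11.1%. The members' windows had a median of 72.8% G and C, that of all tested genes being 54.5%, and GC-rich letters match more often in GC-rich windows. Among the 3126 genes called lower, the shares for the same 4 searches were 35.5%, 29.9%, 28% and 12.8%, and among the 858 called higher 34.6%, 31.4%, 29.5% and 12.4%. These are counts of letters and carry no statement on binding.

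The ligand Tgfb1 (ENSMUSG00000002603, chromosome 7 of GRCm39 from 25386390 to 25404506, plus strand), which encodes TGF-beta 1, had the highest FPKM of the members. Its level was 49.36, 55.69, 44.99, 50.36 and 54.04 FPKM across WT libraries 1 to 5 and 27.74, 36.98, 38.69, 34.46 and 30.39 FPKM in cKO libraries 1 to 5. The highest library labelled cKO lay below the lowest WT library. The group means were 50.9 ± 4.20 and 33.7 ± 4.55 FPKM (SD, n = 5 each), so the level in the libraries labelled cKO was 66.1% of that in WT. The log2 fold change was -0.60 (95% interval -0.82 to -0.39, limma adjusted p = 0.000667, Benjamini-Hochberg). The change passed on adjusted p and fell short of the fold change limit, whose value of 1 on the log2 scale lay outside the interval. In these bulk libraries, fewer cells of a type and less RNA per cell cannot be told apart, here and for every gene below.

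Lists of genes by role follow, and each count of called genes is to be read beside the shares over all genes tested, 16.8% lower and 4.60% higher. A gene whose mean is under 0.1 FPKM in 1 group passes the filter only through the group where it is high, which favours a call, and such genes are pointed out below, named for that reason after their values were seen. Of the 17 listed genes for TGF-beta, activin and GDF ligands, 8 were tested, with 1 called lower and 2 called higher and a median log2 fold change of 0.32. The 1 called lower, Gdf9, and Gdf15, called higher, passed the filter only through their high group, and with a pseudocount of 1 or a filter at 1 FPKM the counts were 0 lower and 1 higher. The other TGF-betas, outside the rule for naming, were low: Tgfb2 was at 0.01 to 0.06 FPKM over the 10 libraries, and Tgfb3 was at 0.04 to 0.16 in WT and 0 to 0.61 in the libraries labelled cKO. Gdf3, which encodes a ligand of the same superfamily, was at 2.85, 6.02, 7.61, 5.18 and 3.9 FPKM across WT libraries 1 to 5 and at 23.77, 53.03, 37.6, 57.74 and 30.2 FPKM in cKO libraries 1 to 5. It rose in all 5 libraries labelled cKO relative to every WT library, with a log2 fold change of 2.96 (standard error 0.297, limma adjusted p = 7.11e-05 with Benjamini-Hochberg adjustment). Of the 16 BMP ligands, 3 were tested, with 1 called lower and 1 called higher. Bmp2, with the highest mean of that list, was at 0.35 to 1.66 FPKM in WT and 0.02 to 0.07 in the libraries labelled cKO. Bmp2 and the gene called higher, Bmp8b, whose groups overlapped, each passed the filter only through their high group. Both calls were lost with a pseudocount of 1, and that of Bmp8b with the Xist covariate.

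Latent TGF-beta is held by binding proteins and carriers and is released by integrins and proteases. Of the 22 genes listed for latency, activation and extracellular antagonists, 14 were tested, with 6 called lower and 2 called higher and a median log2 fold change of -0.38, and a pseudocount of 1 left 4 lower and 2 higher. Lrrc32, which encodes the carrier GARP, fell from 3.52 ± 1.61 to 0.562 ± 0.295 FPKM, and Ltbp1, a latent TGF-beta binding protein, from 3.76 ± 0.841 to 1.01 ± 0.580 FPKM (SD, n = 5 each). Thbs1, which encodes thrombospondin 1, had the highest mean of the list and was at 12.66 FPKM in WT library 1 but 56.98 to 93.33 in the remaining 4, and at 6.73 to 27.67 in the libraries labelled cKO, so that the groups overlapped at WT library 1. Mmp2, which encodes a matrix metalloprotease, went the other way, from 0.25 to 0.69 FPKM in WT to 4.93, 86.77, 13.18, 210.38 and 8.31 FPKM in cKO libraries 1 to 5. Its rise thus differed greatly in size among the libraries labelled cKO, with libraries 2 and 4 highest. WT library 1 was also the lowest WT library in the summed FPKM of 7 megakaryocyte markers, at 274.6 where the other WT libraries were at 731.0 to 1252 and those labelled cKO at 79.59 to 182.9. The part of megakaryocytes in the levels of Thbs1, Lrrc32 and Ltbp1 was not tested.

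Tgfbr1 (ENSMUSG00000007613, chromosome 4 from 47353134 to 47414931, plus strand) encodes the type I receptor of TGF-beta, the kinase that phosphorylates SMAD2 and SMAD3. It was at 9.32, 8.63, 6.73, 9.64 and 8.24 FPKM across WT libraries 1 to 5 and at 5.71, 4.43, 5.36, 5.14 and 5.38 FPKM in cKO libraries 1 to 5. WT library 3 was the lowest of its group and still above every library labelled cKO. Its log2 fold change was -0.69 (95% interval -0.94 to -0.44, limma adjusted p = 0.000669 with Benjamini-Hochberg adjustment), short of the fold change limit.

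Tgfbr2 (ENSMUSG00000032440, chromosome 9 from 115913361 to 116004800, minus strand) encodes the type II receptor, which binds the ligand first. It was at 4.93, 3.59, 3.18, 4.20 and 3.97 FPKM across WT libraries 1 to 5 and at 1.98, 1.73, 2.35, 1.87 and 2.19 FPKM in cKO libraries 1 to 5. The groups did not overlap, and the means of 3.97 ± 0.660 and 2.02 ± 0.248 FPKM (SD, n = 5 each) put the libraries labelled cKO at 50.9% of WT. The log2 fold change was -0.93 (95% interval -1.25 to -0.61, limma adjusted p = 0.000497 with Benjamini-Hochberg adjustment), so the fold change limit lay inside the interval. Other settings moved Tgfbr2 both ways. It was past the limit with Xist above 1 FPKM as a covariate, at -1.03 (limma adjusted p = 0.00493), and without WT replicate 3, at -1.01 (limma adjusted p = 0.000542), but at -0.71 with a pseudocount of 1 (limma adjusted p = 0.000523) and at -0.49 with quantile normalization (limma adjusted p = 0.00718). An antisense gene, Gm4668, shares 443 exonic bases with Tgfbr2 and was at 0 in all libraries but WT library 4, where it was at 0.11 FPKM. Antisense genes also share 467 exonic bases with Smad1 (Gm64087) and 61 with Tgfbr1 (Gm32435), and neither had an FPKM to read. Gm55294 shares 127 exonic bases with Smad5 on the same strand and was at 0 in all libraries.

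Other receptors of the family were listed by type. Of the 7 type I receptors, 5 were tested, with 3 called lower and 1 called higher and a median log2 fold change of -1.74. Acvr1b, the activin receptor that acts through the same SMADs as Tgfbr1, was at 10.19, 7.48, 5.15, 8.27 and 8.83 FPKM across WT libraries 1 to 5 and at 2.18, 1.4, 2.1, 1.58 and 3.47 FPKM in cKO libraries 1 to 5. It fell by 1.88 on the log2 scale (standard error 0.247, limma adjusted p = 0.00021 with Benjamini-Hochberg adjustment), and no library labelled cKO reached the WT range. The other 2 called lower were the BMP receptors Acvr1, at 0.90 to 1.54 FPKM in WT and 0.04 to 0.42 in the libraries labelled cKO, and Acvrl1, at 0.65 to 1.12 and 0 to 0.42, and the 1 called higher was Bmpr1a, at no more than 0.07 FPKM in WT and 0.04 to 0.26 in the libraries labelled cKO. Bmpr1a passed the filter on low values only through its level in the libraries labelled cKO, the groups overlapped, and its call was lost with a pseudocount of 1, with the Xist covariate and in most fits with 1 library left out, so no direction is read from it. These 3 genes, all below the mean required for naming, were picked after their values were seen. Of the 5 type II receptors, 4 were tested and 1 was called lower, Acvr2b, also picked afterwards, from 0.61 to 0.98 FPKM in WT to 0.03 to 0.17. At a pseudocount of 1 the calls lower were 1 for the type I and 0 for the type II receptors.

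Of 10 co-receptors and pseudoreceptors, 6 were tested, with 3 called lower and 1 called higher. Of these, Hjv, called higher, and Nrp2, called lower, passed the filter only through their high group, and with a pseudocount of 1 the counts were 1 lower and 0 higher. Nrp1, which encodes neuropilin 1, fell from 3.05 ± 0.506 to 0.332 ± 0.425 FPKM (SD, n = 5 each), or by 3.41 on the log2 scale. Eng, which encodes endoglin and had the highest mean of the list, was at 21.38 to 24.6 FPKM in WT and 21.6 to 24.03 in the libraries labelled cKO, with a log2 fold change of -0.07 (95% interval -0.21 to 0.06). Tgfbr3, which encodes betaglycan and presents ligand to the type II receptor, is named here after its values were seen. It was at 5.37, 5.27, 5.22, 5.12 and 4.13 FPKM across WT libraries 1 to 5 and at 9.12, 11.03, 11.81, 9.33 and 7.69 FPKM in cKO libraries 1 to 5, a log2 fold change of 0.94 (limma adjusted p = 0.000243 with Benjamini-Hochberg adjustment). All libraries labelled cKO were above all WT libraries for Tgfbr3 and below them for Tgfbr2, so the ratio of their FPKM was 1.04 to 1.64 in WT and 3.51 to 6.38 in the libraries labelled cKO. The ratio of Tgfbr1 to Tgfbr2 FPKM overlapped between the groups, at 1.89 to 2.40 and 2.28 to 2.88.

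Smad1 (ENSMUSG00000031681, chromosome 8 from 80065023 to 80126168, minus strand) encodes a SMAD that receptors for BMPs phosphorylate. It was at 3.13, 3.11, 2.39, 3.50 and 4.05 FPKM across WT libraries 1 to 5 and at 0.78, 0.69, 0.76, 0.34 and 1.11 FPKM in cKO libraries 1 to 5. The 2 groups were well apart, with cKO library 4 lowest and cKO library 5 highest among those labelled cKO. The means were 3.24 ± 0.607 and 0.736 ± 0.274 FPKM (SD, n = 5 each), which left 22.7% of the WT level. This gave a log2 fold change of -2.05 (95% interval -2.62 to -1.47, limma adjusted p = 0.000182 with Benjamini-Hochberg adjustment), the lowest of the members on this scale, though Smad6 was lower as a ratio of means and with a pseudocount of 0.01. Of all tested genes, 6.58% had a lower log2 fold change than Smad1. By exact permutation p was 0.00794 (two-sided), the lowest possible with 5 against 5. The same p was obtained for every member but Smad7. By annotated length, these levels stand for about 478 fragments in WT library 1 and about 47 in cKO library 4.

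Smad5 (ENSMUSG00000021540, chromosome 13 from 56850797 to 56890190, plus strand), the other SMAD of the BMP side, was more abundant than Smad1 in FPKM. Its level was 13.67, 12.39, 10.74, 12.65 and 13.74 FPKM across WT libraries 1 to 5 and 6.79, 6.46, 5.98, 6.62 and 7.63 FPKM in cKO libraries 1 to 5. Within each group the values were close together, and the gap between the groups exceeded the range of either. The log2 fold change was -0.91 (standard error 0.0930, 95% interval -1.11 to -0.70), and the limma adjusted p of 7.9e-05 with Benjamini-Hochberg adjustment was the smallest of the members, although the fold change fell short of the limit. Smad9, the least studied SMAD of this side and named after its values were seen, was at no more than 0.03 FPKM in WT and at 0.16 to 0.35 in the libraries labelled cKO, where it was called higher at a level of few fragments. Smad9 passed the filter on low values only through the libraries labelled cKO, so the filter itself favours such a call, which was lost with a pseudocount of 1.

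Smad2 (ENSMUSG00000024563, chromosome 18 from 76374327 to 76445180, plus strand) encodes a SMAD of the TGF-beta and activin side. It was at 8.50, 7.77, 6.80, 8.03 and 7.03 FPKM across WT libraries 1 to 5 and at 5.68, 5.74, 6.51, 5.84 and 6.52 FPKM in cKO libraries 1 to 5. The groups did not overlap, but WT library 3, at 6.80, and cKO library 5, at 6.52, came close. Its log2 fold change was -0.33 (95% interval -0.52 to -0.13, limma adjusted p = 0.0126 with Benjamini-Hochberg adjustment), so the fold change limit lay outside the interval. With quantile normalization it was -0.11 (limma adjusted p = 0.314).

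Smad3 (ENSMUSG00000032402, chromosome 9 from 63554049 to 63665476, minus strand), which binds DNA directly on the TGF-beta side, was at 7.17, 8.84, 8.30, 8.10 and 9.0 FPKM across WT libraries 1 to 5 and at 5.78, 6.54, 4.91, 5.27 and 4.43 FPKM in cKO libraries 1 to 5. The lowest WT library, 1, was above the highest labelled cKO, 2. The log2 fold change was -0.62 (95% interval -0.87 to -0.37, limma adjusted p = 0.00137 with Benjamini-Hochberg adjustment), again short of the limit.

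The log2 fold changes of Smad1 and Smad5 were lower than those of Smad2 and Smad3, and the make-up of the receptor-regulated SMADs was different between the groups. The summed FPKM of Smad1, Smad2, Smad3 and Smad5 was 28.2 to 33.8 in WT and 18.1 to 19.7 in the libraries labelled cKO. Smad1 and Smad5 together made up 51.7%, 48.3%, 46.5%, 50% and 52.6% of this sum in WT libraries 1 to 5 and 39.8%, 36.8%, 37.1%, 38.5% and 44.4% in cKO libraries 1 to 5. The shares did not overlap between the groups, with cKO library 5 nearest to WT. Smad2 alone went from 24.0% ± 1.99 to 32.1% ± 2.59, and Smad1 from 10.1% ± 1.33 to 3.87% ± 1.35 (SD, n = 5 each), while the shares of Smad5, at 38% to 42.1% and 32.9% to 38.8%, and of Smad3, at 22.1% to 29.4% and 22.5% to 33.7%, overlapped. These shares are a description of transcript levels per length and were not tested.

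**Figure D2:**
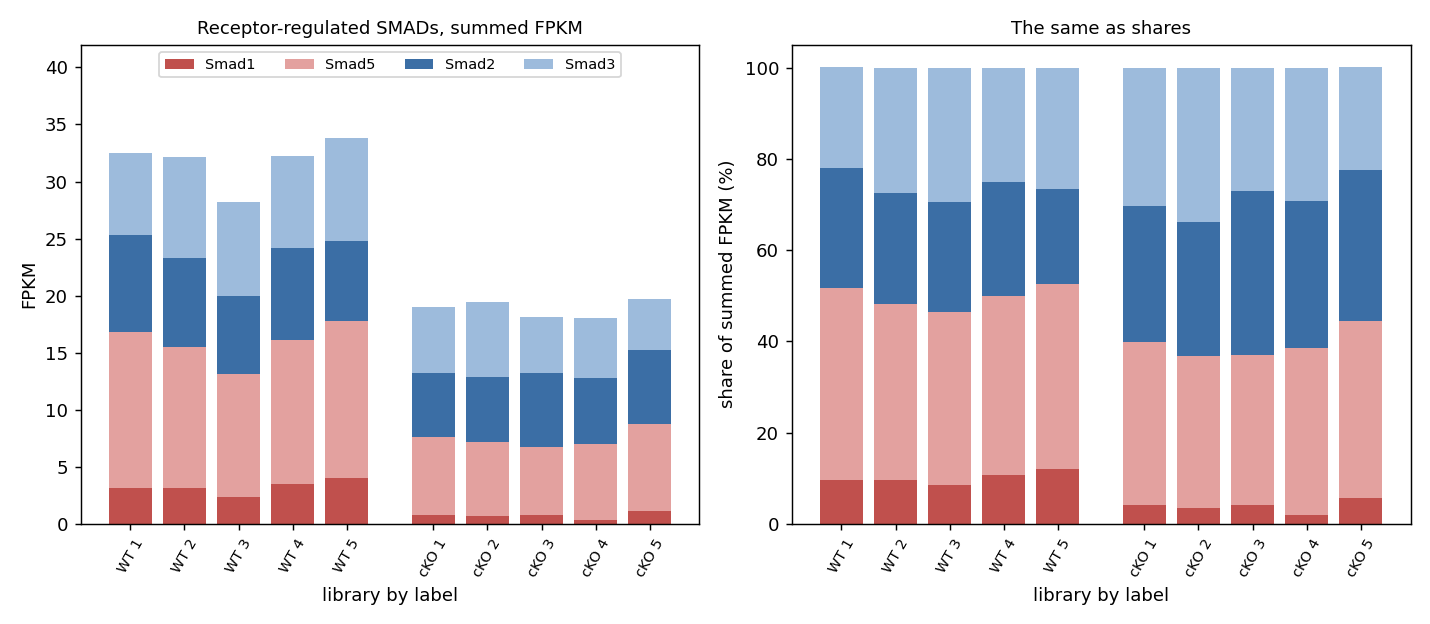
Summed FPKM of the receptor-regulated SMADs in each library (left) and the share of each gene in that sum in percent (right), by label and replicate. The sum is lower in the libraries labelled cKO, at 18.1 to 19.7 against 28.2 to 33.8 FPKM, and the red segments of Smad1 and Smad5 together take a smaller share there, though that of Smad5 alone overlaps.

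Smad4 (ENSMUSG00000024515, chromosome 18 from 73769343 to 73836915, minus strand) encodes the partner that all receptor-regulated SMADs share. It was at 16.85, 15.84, 11.80, 16.95 and 17.73 FPKM across WT libraries 1 to 5 and at 6.29, 5.97, 9.38, 6.24 and 10.51 FPKM in cKO libraries 1 to 5. The libraries labelled cKO were uneven, with libraries 3 and 5 well above the other 3, and WT library 3 was the lowest of its group. The means were 15.8 ± 2.35 and 7.68 ± 2.11 FPKM (SD, n = 5 each), or 48.5% of WT. This gave a log2 fold change of -1.06 (95% interval -1.46 to -0.67, limma adjusted p = 0.000801 with Benjamini-Hochberg adjustment), just past the fold change limit, and the call depends on settings that move it slightly. Smad4 was at -0.98 with a pseudocount of 1, -0.96 with median-ratio scaling, -0.94 with quantile normalization, -0.98 without cKO replicate 2 and -0.997 without cKO replicate 4, all short of the limit, with limma adjusted p from 0.000714 to 0.00267. As ratios of FPKM, Smad4 to the summed receptor-regulated SMADs overlapped between the groups, at 0.418 to 0.525 in WT and 0.307 to 0.534 in the libraries labelled cKO. Its share of all 7 SMADs overlapped too, at 27.6% to 33% and 22% to 32.9%, while relative to Smad2 alone, the least changed of the receptor-regulated SMADs, the ranges were apart, at 1.74 to 2.52 and 1.04 to 1.61.

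Smad6 (ENSMUSG00000036867, chromosome 9 from 63860341 to 63929793, minus strand) encodes an inhibitory SMAD that acts mainly on the BMP side. It was at 0.43, 0.43, 0.30, 0.28 and 0.31 FPKM across WT libraries 1 to 5 and at 0.07, 0.04, 0.06, 0.02 and 0.08 FPKM in cKO libraries 1 to 5. The groups were apart but low throughout, at about 16 to 25 fragments in each WT library and 1 to 5 in each library labelled cKO by annotated length. Summed over the groups these were about 102 and 14 fragments, a ratio of WT to cKO of 6.89 scaled to depth (95% interval 3.92 to 13.0, exact binomial, for counting error only). The fitted log2 fold change of -1.55 (limma adjusted p = 0.000524 with Benjamini-Hochberg adjustment) depends on the pseudocount and was -2.57 with 0.01 and -0.36 with 1 in place of 0.1, where the call was lost. Smad3 and Smad6 are neighbours on chromosome 9, with 194.9 kb and 3 genes of the table between them, of which 1 was tested. That gene, Gm18541, named for its place, was at 2.14 FPKM in WT and 1.86 in the libraries labelled cKO and was not called.

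Smad7 (ENSMUSG00000025880, chromosome 18 from 75500374 to 75529006, plus strand) encodes the other inhibitory SMAD, which blocks the type I receptors of TGF-beta and is itself a target of the pathway. It was at 1.99, 1.75, 2.48, 1.84 and 2.69 FPKM across WT libraries 1 to 5 and at 1.98, 1.69, 2.08, 1.85 and 1.67 FPKM in cKO libraries 1 to 5. The groups overlapped, with WT libraries 3 and 5 above all others. The log2 fold change was -0.19 (95% interval -0.54 to 0.16, limma adjusted p = 0.359 with Benjamini-Hochberg adjustment). By exact permutation p was 0.214 (two-sided). The interval leaves out a fall to the fold change limit, and the missed threshold does not show that the levels were equal. With quantile normalization the estimate was positive, at 0.31.

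**Figure D3:**
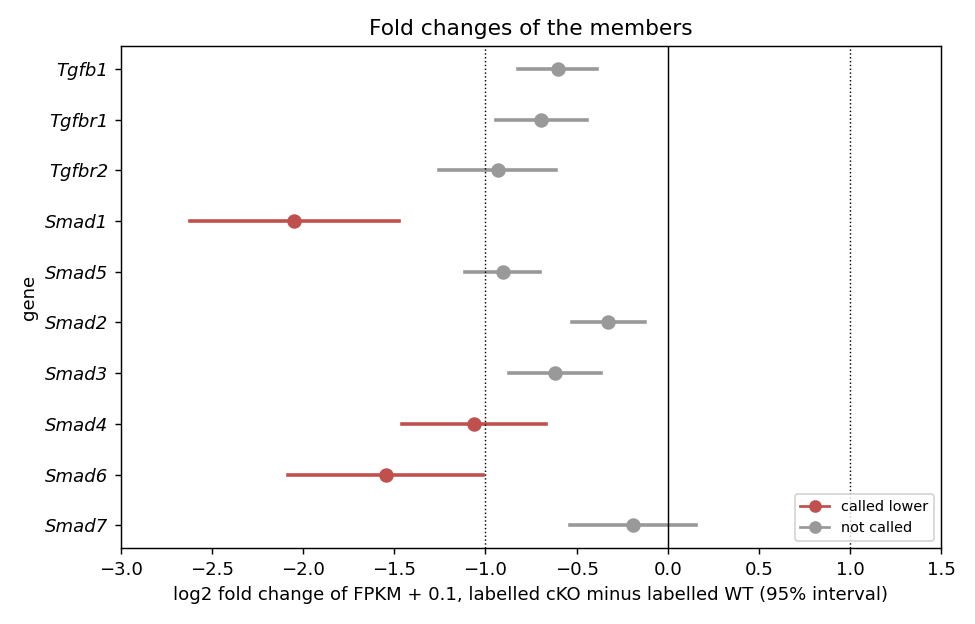
Log2 fold change of FPKM + 0.1 for each member, labelled cKO minus labelled WT, as points with 95% intervals from limma; red marks called genes, grey the others, and dotted lines the fold change limit of 2. The interval of Smad7 holds 0, and Smad1 lies furthest from 0 at -2.05 on this scale.

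By mean FPKM in WT the order was Tgfb1, Smad4, Smad5, Tgfbr1, Smad3, Smad2, Tgfbr2, Smad1, Smad7 and Smad6. The ranges over libraries were apart between Tgfb1 and Smad4, between Smad5 and Tgfbr1, between Smad2 and Tgfbr2 and between Smad7 and Smad6, and overlapped between all other neighbours. In the libraries labelled cKO the order was Tgfb1, Smad4, Smad5, Smad2, Smad3, Tgfbr1, Tgfbr2, Smad7, Smad1 and Smad6. There the ranges of neighbours from Smad4 to Tgfbr1 overlapped, and Smad7 at 1.85 FPKM lay above Smad1 at 0.736 with ranges apart, whereas in WT the mean of Smad1 was the higher and the ranges overlapped.

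Among the 12326 other named genes that averaged 1 FPKM or more, those whose centred log2(FPKM + 0.1) values over the 10 libraries were most like those of Smad1 were Plod1, Marveld1 and Bcl9, with root-mean-square differences of 0.115, 0.122 and 0.139 where the median gene differed by 1.10. For Smad4 they were Pkm, Arap1 and Ptpn6, at 0.111, 0.113 and 0.121 beside a median of 0.667. For Smad6, compared with 12327 genes, they were Snx29, Tapbpl and Tex2, at 0.113, 0.163 and 0.163 beside a median of 0.837. At the low level of Smad6 the pseudocount shrinks its change, so these genes match a shrunken profile. In FPKM the WT and cKO means of Smad6 were 0.35 and 0.054, a ratio of 6.48. Those of Snx29, Tapbpl and Tex2 were 2.13 and 0.686, 11.2 and 4.17, and 20.8 and 7.52, which are smaller falls. Plod1 encodes a collagen lysyl hydroxylase, Pkm a pyruvate kinase and Ptpn6 the phosphatase SHP-1 of blood cells. The measure says nothing of shared control.

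Of 36 receptor and SMAD regulators, 35 were tested, with 7 called lower and 1 called higher, beside 16.8% and 4.60% of all genes tested, and a median log2 fold change of -0.01. With a pseudocount of 1, and likewise with quantile normalization, 4 were called lower and 1 higher. Ctdspl and Ctdsp2, small phosphatases that act on SMADs, fell from 7.11 ± 0.962 to 1.33 ± 0.539 and from 30.1 ± 5.69 to 11.4 ± 3.19 FPKM, and Fkbp1a, which binds and holds type I receptors inactive, from 22.5 ± 2.69 to 8.82 ± 2.71 FPKM (SD, n = 5 each). Ppp1r15a, also known as Gadd34, which directs a phosphatase to its substrates, rose from 9.70 ± 1.73 to 29.1 ± 6.62 FPKM. Strap, which binds receptors and SMAD7, had the highest mean of the list and was at 58.12 to 81.32 FPKM in WT and 94.40 to 117.89 in the libraries labelled cKO, a log2 fold change of 0.68 that was short of the limit.

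Of 26 nuclear co-repressors and co-activators, 25 were tested, with 7 called lower and 1 called higher and a median of -0.33. A pseudocount of 1 left 4 lower and 1 higher. Runx2 and Zeb2, transcription factors that bind SMADs, fell from 8.97 ± 1.65 to 1.35 ± 0.795 and from 12.4 ± 1.28 to 4.75 ± 1.0 FPKM (SD, n = 5 each). Of the lower genes, Mecom passed the filter only through its WT level. The AP-1 partner Fos was at 2.04 to 4.86 FPKM in WT and 0.15 to 1.79 in the libraries labelled cKO, and its partner Jun was at 1.6 to 2.58 in WT and at 2.58, 7.7, 12.48, 8.99 and 5.69 FPKM in cKO libraries 1 to 5, so that cKO library 1 equalled the highest WT library. Jun was the 1 gene of this list called higher, and with the Xist covariate, which stands for the uneven sexes, that call was lost. Ctbp1, the co-repressor with the highest mean, was at 65.14 to 81.17 and 79.69 to 95.64 FPKM. Of 18 genes for signalling from the receptors other than through SMADs, all were tested, with 2 called lower and 0 higher and a median of -0.03, and 1 lower with a pseudocount of 1 or quantile normalization. These 2 were the kinases Limk1, from 4.8 ± 0.567 to 1.69 ± 0.457 FPKM, and Map2k6, from 3.95 ± 0.314 to 1.67 ± 0.238 FPKM, and the most abundant, the p38 kinase Mapk14, was at 67.9 ± 3.84 and 38.5 ± 5.85 FPKM (SD, n = 5 each).

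Of 20 genes listed as known targets of TGF-beta, 18 were tested, with 6 called lower and 3 called higher, beside 16.8% and 4.60% of all genes tested, and a median of -0.35. Cdkn2b, called higher, passed the filter only through the libraries labelled cKO, and a pseudocount of 1 left 3 lower and 2 higher. Tgfbi, a secreted matrix protein, was at 34.96, 25.09, 21.89, 32.61 and 37.17 FPKM across WT libraries 1 to 5 and at 2.49, 0.56, 6.03, 0.27 and 8.68 FPKM in cKO libraries 1 to 5. Rhob, a small GTPase, fell from 29.3 ± 6.62 to 6.20 ± 3.88 FPKM and Klf10, a transcription factor induced early by TGF-beta, from 11.7 ± 1.46 to 6.01 ± 2.70 FPKM (SD, n = 5 each). For Tgfbi and Rhob alike, cKO libraries 3 and 5 were the highest of those labelled cKO and cKO library 4 the lowest. Cdkn1a, the cell cycle inhibitor p21, which p53 also induces, went up, from 1.13 to 3.65 FPKM in WT to 5.57, 38.64, 26.71, 42.6 and 29.54 FPKM in cKO libraries 1 to 5, with library 1 far below the other 4. Of 15 BMP targets, 11 were tested, with 2 called lower and 2 called higher and a median of -0.68. Smad6, counted above as a member, Smad9 and Hey1 make up 3 of these 4 calls and passed the filter only through their high group, and 0 of the 4 remained with a pseudocount of 1 or a filter at 1 FPKM. With 1 library left out, 1 to 4 of the BMP targets were called lower and 1 to 2 higher. Gata2, the most abundant of them, was at 18.62 to 30.42 FPKM in WT and 9.48 to 20.08 in the libraries labelled cKO, which overlapped, and Id1, the best known target and named after its values were seen, was at 7.25 to 11.28 and 2.49 to 8.54 FPKM, with a limma adjusted p of 0.066 with Benjamini-Hochberg adjustment.

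Taking the 12 lists as 1, 143 of 187 genes were tested, and 38 fell and 14 rose by the rule for calling, beside 16.8% and 4.60% of all genes tested. Their median log2 fold change was -0.26. Without the members, 133 were tested, with 35 lower and 14 higher and a median of -0.21, beside -0.11 over all genes tested. Over the 12 lists the counts were 19 lower and 7 higher at a pseudocount of 1, and 27 lower and 18 higher with quantile normalization. The lists too were chosen with earlier results of these data known, so their counts are a description and no test of an excess.

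**Figure D4:**
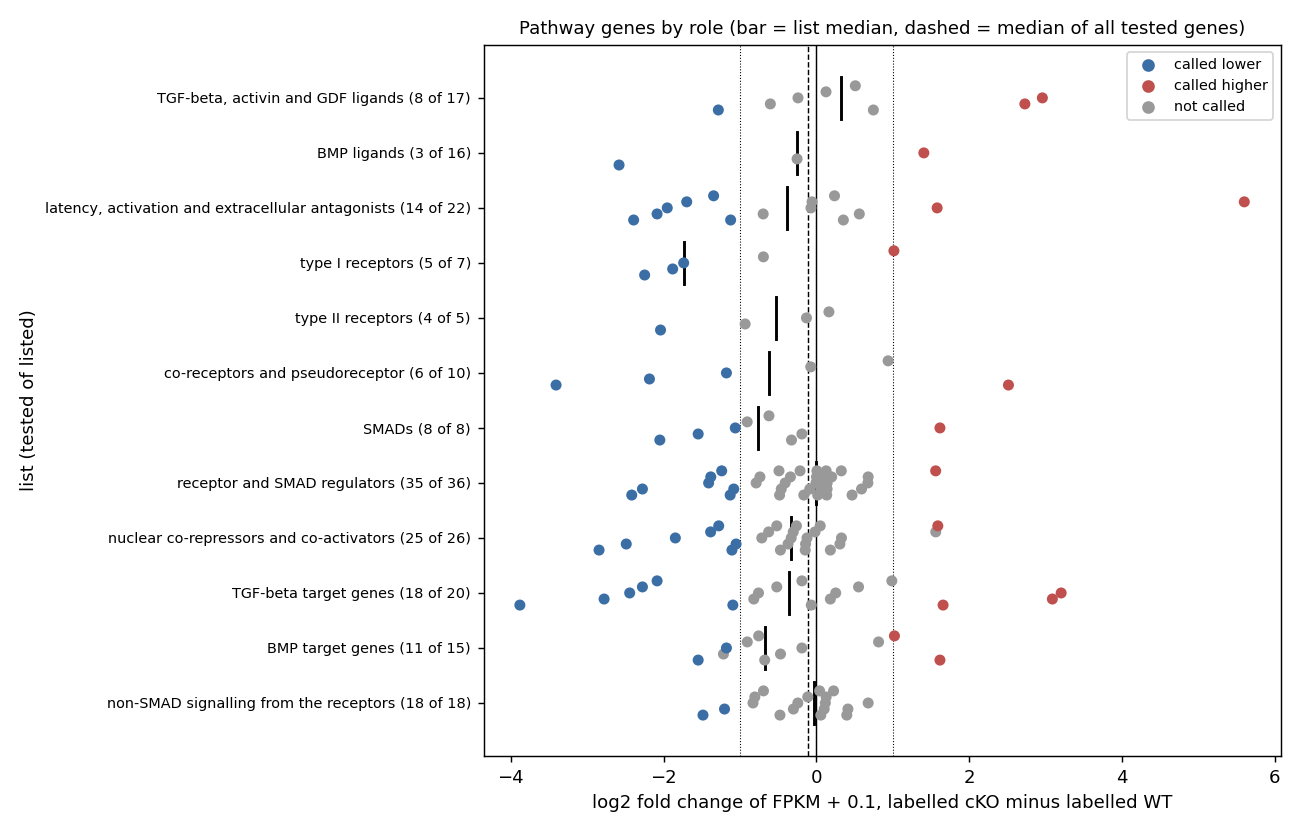
Log2 fold change of FPKM + 0.1, labelled cKO minus labelled WT, of each tested gene in 12 lists by role, with the tested and listed numbers beside each name; blue and red mark genes called lower and higher, grey those not called, short bars the list medians, the dashed line the median of all tested genes at -0.11 and dotted lines the fold change limit of 2. Type I receptors have the lowest list median, at -1.74.

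Markers of blood cell types differed between the groups as well. Their counts are to be read beside the shares over all genes tested, 16.8% lower and 4.60% higher. All 7 monocyte and dendritic cell markers and all 7 megakaryocyte markers were called lower, 5 of 7 erythroid markers were called higher and 0 lower, and none of the lists held a gene at 0 in all libraries. The monocyte and dendritic markers, of which Lyz2 was the most abundant, summed to 1224, 713.5, 675.2, 994.0 and 1212 FPKM across WT libraries 1 to 5 and to 41.51, 10.66, 112.7, 3.41 and 183.2 FPKM in cKO libraries 1 to 5. The erythroid markers, led by Hbb-bs, summed to 611.6, 456.4, 1159, 442.5 and 339.9 FPKM in WT and to 2532, 2603, 2556, 2187 and 1592 FPKM in the libraries labelled cKO. The members did not share 1 order over the libraries. cKO libraries 3 and 5 were the highest of their group for the monocyte and dendritic markers and for Smad2, Smad4 and Tgfbr2. For Smad1 and Smad6, as for these markers, cKO library 5 was the highest of its group and cKO library 4 the lowest. But cKO libraries 3 and 5 were the lowest for Smad3, and cKO library 3 was the lowest for Smad5 and the highest for Tgfb1. For Tgfbr1 cKO library 1 was the highest, and for Smad7 cKO library 5 was the lowest. WT library 3, the lowest of its group for the monocyte and dendritic markers, was also its lowest for all members but Smad3, Smad6 and Smad7. The part that the mixture of cells had in the levels of the members was not tested.

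The remaining lists were mixed, and their counts too stand beside 16.8% lower and 4.60% higher over all genes tested. Of 7 neutrophil markers 3 were called lower, and their sum, led by Mpo, was 2136 to 2909 FPKM in WT and 1371, 113.9, 529.3, 98.95 and 845.4 FPKM in cKO libraries 1 to 5. The sum is carried by the most abundant genes: the mean log2(FPKM + 0.1) of the 7 was 4.88 to 5.53 in WT and 6.18, 2.59, 5.29, 1.83 and 4.47 in cKO libraries 1 to 5, so that cKO library 1 lay above all WT libraries and cKO library 3 within their range. Of 7 mast cell and basophil markers 6 were called lower, with sums led by Prss34 of 692.3 to 1375 and 91.31 to 589.2 FPKM. The megakaryocyte list was led by Ppbp. Of 7 progenitor markers, led by Cd48, 2 were called lower and the sums were 220.5 to 301.5 FPKM in WT and 114.5 to 203.2 in the libraries labelled cKO, with Kit, named outside the rule as the receptor by which progenitors are known, at 36.56 to 54.36 and 18.73 to 31.11 FPKM. In WT the lymphoid and stromal lists had the lowest sums of the marker lists. The B cell list, led by Cd79b, summed to 10.08 to 15.41 FPKM in WT and 0.87 to 7.31 in the libraries labelled cKO, with 1 of 5 tested called lower. The T and NK cell list, led by Nkg7, summed to 77.31 to 101.0 and 6.54 to 28.37 FPKM, with 3 of 7 called lower, and the stromal and endothelial list, led by Pecam1, to 20.68 to 29.57 and 4.76 to 10.01 FPKM, with 5 of 7 called lower and 1 higher. By mean log2(FPKM + 0.1) the groups overlapped for the B cell list, at -0.91 to -0.02 and -2.49 to -0.39, and for the T and NK cell list, at -0.14 to 0.54 and -2.08 to 0.15.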

How the data were processed

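RNA of Lin- bone marrow cells was sequenced in 5 libraries labelled WT and 5 labelled cKO. The authors trimmed and aligned paired reads and deposited FPKM per gene and library to 2 decimals. Their processing notes name cutadapt 1.9.1, HISAT2 2.0.1 and HTSeq 0.6.1 and the build GRCm39. The gene lengths, annotation and strand setting are not given in the sources used here. Depth came from genes with a single annotated transcript, whose FPKM fall on whole multiples of 1 fragment: 95.98% to 96.37% of values of up to 20 fragments were within 0.2 of a whole number, where 40% would be by chance. Fragment numbers of named genes use annotated lengths and are approximate.

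The test was limma 3.58.1 (lmFit, then eBayes with a mean trend), run under R 4.3.3 and applied to log2(FPKM + 0.1). P-values are two-sided and adjusted by Benjamini-Hochberg over the 18742 genes averaging 0.1 FPKM or more. The script was tried on simulated data. The limma p-values weigh the difference of the group means against the spread between these samples. FPKM are not counts, so no count model was used. Single members were also compared by exact permutation tests in Python 3.11.15 (scipy 1.17.1). Replicates are separate samples by their labels. No pair of libraries within a group was alike within sampling noise (the lowest chi-square per df was 7.37).

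Named were the 10 members, Dhx9, Xist and Ddx3y, from each pathway list up to 4 called genes averaging 1 FPKM or more, by size of change, and the gene with the highest mean, the 3 genes most like each called member, and the most abundant gene of each cell type list. The text marks genes named outside this rule. Alternatives tried were other pseudocounts, filters, scalings, a fit without trend, a replicate block, an Xist covariate and leaving out each library. The motifs GGCGC and GGCCG replaced GGCGCC after a first search. The members and lists were chosen with earlier results of these data known.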

Additional observations from a re-analysis of the deposited data

Results flagged for a closer look

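Among 76 groups of 5 libraries, those of the members, Dhx9 and the pathway genes named by the rule, 4 held a library far from the other 4, where about 3.8 would by chance at 1 in 20. Ctbp1 was at 79.69 FPKM in cKO library 3 and 91.55 to 95.64 in the other libraries labelled cKO. Ctdsp2 was at 16.98 FPKM in cKO library 1 and 9.24 to 11.01 in the others. Lrrc32 was at 1.07 FPKM in cKO library 5 and 0.34 to 0.52 in the others. Runx2 was at 11.83 FPKM in WT library 1 and 7.75 to 8.85 in the other WT libraries. No value of a member was flagged, and the cause was not tested.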

How the results depend on the processing

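Members called lower numbered 3, and 0 were called higher under any setting tried. A pseudocount of 1 left 1 member (Smad1), with 1486 of all genes lower and 356 higher and 19 and 7 in the pathway lists. With adjusted p alone these were 9 members, 5300 and 3138 genes, and 63 and 27. A filter at a mean of 1 FPKM, which tests 12353 genes and not Smad6, gave 1827 lower and 462 higher over all genes and 24 and 6 in the lists. Quantile normalization gave 2245 lower and 1581 higher over all genes and 27 and 18 in the lists, so 41.3% of calls were higher, not 21.5%, and moved the median of all genes from -0.11 to 0.10. It turned Smad7 to 0.31, and the cause was not tested. Median-ratio scaling moved that median to -0.01. With 1 library left out, 2 to 4 members were called lower, 2892 to 3268 genes lower and 762 to 948 higher, and 33 to 40 and 11 to 16 in the lists. Smad1 was called lower under all 20 refits, with a log2 fold change of -2.20 to -1.84 with 1 library left out, -1.57 with quantile normalization and -1.29 at a pseudocount of 1. Tgfbr2 was at -0.49 and -0.71 under the last 2 settings, and Smad6 at -1.06 and -0.36. Dhx9 stayed higher, with a log2 fold change of 0.96 to 1.02 with 1 library left out, but at 1.0 it sits at the fold change limit and lost its call in 9 settings. With the replicate block, 3107 genes were lower, 857 higher and 3 members lower. The numbers do not pair the libraries: deviations of same-numbered libraries correlated at 0.12, 0.03, -0.01, -0.003 and 0.09, and only 1 and 5 were best matched by their own number. Depth limits Smad6 and the genes near 0.1 FPKM most. The libraries are bulk, the labels conflict with Dhx9, and sex is unbalanced and poly(I:C) in the WT mice is not stated.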
